A study of Mus musculus with 13 samples.

Results

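Across every array of the series, 7 subunit genes of the NuRD complex (nucleosome remodelling and deacetylase) were followed: the scaffold genes Mta1 and Mta2, the histone chaperone genes Rbbp4 and Rbbp7, the deacetylase gene Hdac1, the linker gene Gatad2a and the remodeller gene Chd4. They were the rows of the deposited value table whose annotation names exactly 1 gene, and that gene among the 7. Each gene had 1 such row, so 7 of 20205 probes were used, and 1 further probe that names a member beside another gene was left out. Each array held RNA of a source named NT1 in one dye and RNA of a source named TBV in the other, as total RNA from mouse. The series title sets Sall4 -/- beside the names NT1 and TBV without saying which of them carries it. The labels give no cell type, age, treatment or other allele. Sall4 itself had a value on all 13 arrays, below 0 on 10 of them, with log2 ratios of NT1 over TBV from -0.82 to 0.39. Where its probe lies relative to the mutation is not given in the sources used here, so these ratios do not settle which source carries it. The table holds no level of a single source, so cell type markers could be compared between the sources but not checked in either.

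NuRD joins a chromatin-remodelling ATPase to histone deacetylases. In its accepted architecture the MTA proteins dimerise and hold the deacetylases, RBBP4 and RBBP7 bind histone tails, and MBD2 or MBD3 with a GATAD2 protein connects this core to CHD4. Sall proteins recruit NuRD through a short motif at their N-terminus, and in embryonic stem cells the complex with MBD3 limits the expression of pluripotency genes and is needed for lineage commitment.

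The sources were hybridised in 4 combinations over 13 arrays. Pair A set NT1p14 against TBVp13 (5 arrays), pair B set NT1p12 against TBVp12 (4 arrays), pair C set NT1 1 against TBV2 (2 arrays), and pair D set NT1p12 against TBVp13 (2 arrays). The labels speak of different passages, and the number after p (12, 13 or 14) was read as the passage. Cy5 labelled NT1 on 7 arrays and TBV on 6, and ratios with TBV in Cy5 were multiplied by -1, so that every value is given as a log2 ratio of NT1 over TBV. Pair D shares both of its sources with other pairs, which left 3 independent pairs. Nothing in the labels says that the pairs are separate cultures, so p-values over the 3 pairs measure only the spread between these RNA sources. The p-values between 2 pairs and within a pair measure only the spread between repeat arrays. Between 14314 and 18381 probes had a value per array. From 2.4% to 40.4% of an array's values were whole numbers without decimals, so a 0 among them can be any ratio near 0. The log base and the numerator are not given in the sources used here, so folds hold only if the base is 2, and the direction is not settled. Arrays of pair A and of pair B correlated across probes, after the turn, from -0.36 to 0.24 in the same dye orientation and from -0.55 to 0.01 in opposite ones. The pair values correlated at -0.50 for A with B, 0.13 for A with C and -0.04 for B with C. Results are therefore also given with one pair turned, mostly pair A. That choice does not mark pair A as the reversed one, and whether any pair is reversed is not known.

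The promoters of Rbbp4, Gatad2a and Mbd3 are printed because these are the 3 NuRD subunit genes whose ratio differed between 2 source pairs (values in the comparison of pairs). They were 2 of 7 member probes and 1 of 7 tested probes of other subunits, all higher in pair A than in pair B. Of all probes 11.5% were called higher and 11.2% lower by that test, so such a call is common in this table. The RefSeq promoter table of build GRCm38.p6 matched 6 of the 7 members with 8 entries, Gatad2a and Chd4 having 2 starts each, and Hdac1 was the member without one. Each entry is a window of 300 bases around a gene's start, most of it before the start. Capitals mark matches on either strand to GGGCGG (the GC box bound by Sp and Klf factors), CCAAT (the word bound by NF-Y), the E-box CACGTG and the E2F-type word TTCCCGCC. Where TTCCCGCC runs into a GC box the capitals join. The first lies at chr4:129335321-129335620 on the minus strand, the second at chr8:69996335-69996634 on the minus strand, and the third at chr10:80399482-80399781 on the minus strand.

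Rbbp4: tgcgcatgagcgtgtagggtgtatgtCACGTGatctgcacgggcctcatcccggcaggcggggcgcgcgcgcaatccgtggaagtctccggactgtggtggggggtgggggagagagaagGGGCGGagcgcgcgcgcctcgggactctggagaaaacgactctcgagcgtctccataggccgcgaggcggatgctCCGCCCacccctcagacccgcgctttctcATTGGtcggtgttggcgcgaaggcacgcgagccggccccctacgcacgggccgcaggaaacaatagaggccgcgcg
Gatad2a: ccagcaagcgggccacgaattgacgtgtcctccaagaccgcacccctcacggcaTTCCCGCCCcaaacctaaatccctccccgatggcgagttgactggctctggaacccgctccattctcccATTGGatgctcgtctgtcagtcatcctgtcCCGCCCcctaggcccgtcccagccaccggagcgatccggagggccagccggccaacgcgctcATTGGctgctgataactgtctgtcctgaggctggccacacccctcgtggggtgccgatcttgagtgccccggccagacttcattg
Mbd3: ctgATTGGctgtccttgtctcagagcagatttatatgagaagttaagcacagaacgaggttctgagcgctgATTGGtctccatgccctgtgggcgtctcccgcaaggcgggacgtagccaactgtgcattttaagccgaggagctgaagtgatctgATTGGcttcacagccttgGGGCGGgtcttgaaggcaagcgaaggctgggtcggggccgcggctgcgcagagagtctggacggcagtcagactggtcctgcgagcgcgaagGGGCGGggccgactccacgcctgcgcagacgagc

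Their base content was 68.7% G and C for Rbbp4, 64% for Gatad2a and 60.7% for Mbd3. The GC box matched 2 times in each of the 3 windows, and CCAAT matched 1 time in Rbbp4, 2 times in Gatad2a and 3 times in Mbd3. Both are common words: of 32851 promoters of this length 35.7% hold GGGCGG and 37.4% hold CCAAT. The E-box CACGTG, present 1 time in Rbbp4, is in 7.15% of promoters, and TTCCCGCC, present 1 time in the printed Gatad2a window, is in 2.19%. The window of the other Gatad2a start, not printed, differed. It had 69.7% G and C, 4 matches to the GC box, and 0 to CCAAT and to TTCCCGCC. The octamer ATGCAAAT, the word bound by Oct factors and held by 1.74% of promoters, was absent from these windows and matched 1 time in that of Mta2. The Mta2 window also held CCGGAAGT, an Ets-type site found in 3.89% of promoters. TTTGGCGC (0.514% of promoters) and TTTCCCGC (1.07%), 2 other E2F-type words, matched in none of the windows searched. A match is a run of letters and no measured site.

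**Figure D1:**
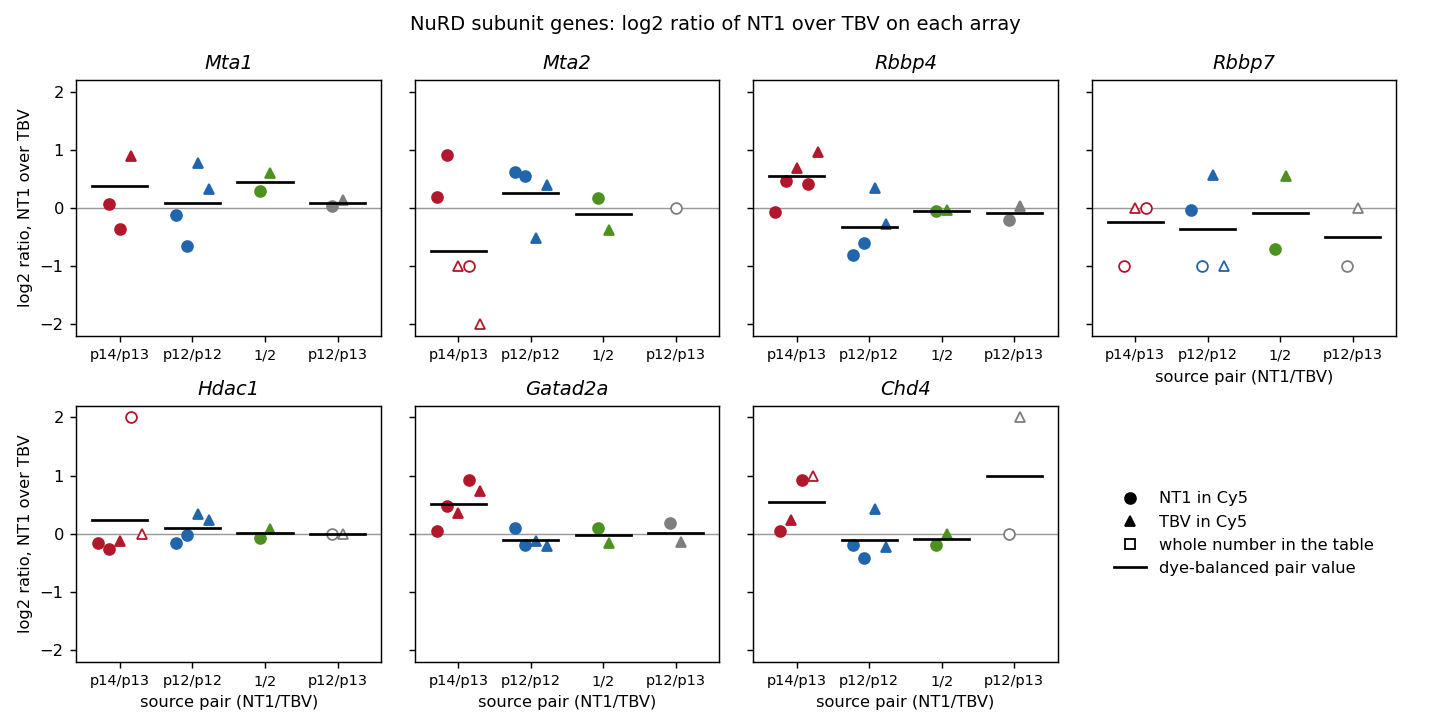
Log2 ratio of NT1 over TBV (vertical axis) of the 7 NuRD subunit genes on each array, by source pair (horizontal axis, NT1 number over TBV number, pairs A to D from left to right). Circles have NT1 in Cy5, triangles TBV in Cy5, open symbols are whole numbers and bars are dye-balanced pair values. Rbbp4, Gatad2a and Chd4 sit mostly above 0 in pair A and mostly below 0 in pair B, and Hdac1 has a single value of 2.

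Over the 3 independent pairs NT1 was first compared with TBV. No NuRD subunit gene passed the threshold (limma, adjusted p = 1.00 for each of the 7), in a table where 0 of 15973 probes did (0%) and 164 reached 0.05 before adjustment. A limma fit of the 13 arrays that took the pair as random called 3 probes, none of them a member. The correlation within pairs estimated for that fit was -0.16, so sharing a pair did not widen its error. Its calls therefore do not have the pair as the replicate. The members' mean ratios ran from -0.23 to 0.30, with 5 above 0 and 2 below, and their median was 0.11 over the 7 genes. Mta1 and Hdac1 were above 0 in all 3 pairs, 2 of 7, where 9.05% of all probes were. Rbbp7 was below 0 in all 3, 1 of 7, where 5.33% of all probes were. With pair A turned no member was above 0 in all 3 pairs, and Rbbp4, Gatad2a and Chd4, 3 of 7, were below 0 in all 3. Of all 7968 genes, 1120 were then above 0 in all 3 pairs and 1293 below. That turn put the means of Mta2, Rbbp4, Hdac1, Gatad2a and Chd4 on the other side of 0.

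Rbbp4 encodes the WD40 histone chaperone that the Sall motif contacts. In pair A its ratio was -0.08, 0.47, 0.68, 0.41 and 0.97 on arrays 1 to 5. In pair B it was -0.81, -0.60, 0.34 and -0.28 on arrays 1 to 4. The first pair was high on 4 of 5 arrays and the second low on 3 of 4, and the ranges overlap through array 1 of the first and array 3 of the second. It was -0.06 and -0.04 in pair C, and -0.20 and 0.03 in pair D. The dye-balanced pair values were 0.55, -0.34 and -0.05 in the 3 independent pairs, a mean of 0.05 ± 0.45 (SD, n = 3). All 13 values of Rbbp4 kept their decimals.

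Rbbp7, the close paralogue of Rbbp4, is a subunit of the same complexes. It was read on 11 arrays, and 7 of these values were whole numbers. In pair A they were -1, 0 and 0 on arrays 1, 3 and 4, and in pair B they were -0.03, -1, 0.57 and -1. In pair C it stood at -0.71 with NT1 in Cy5 and at 0.54 with TBV in Cy5, so the arrays of that pair lay on opposite sides of 0. Pair D gave -1 and 0. The pair values of -0.25, -0.37 and -0.08 averaged -0.23 ± 0.14 (SD, n = 3). With TBV in Cy5 only, the mean was 0.11.

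Hdac1, a class I deacetylase that also serves the Sin3 and CoREST complexes, stood near 0 on most arrays. Its ratio was -0.15, -0.27, -0.13, 2 and 0 in pair A, where array 4 stands alone. It was -0.16, -0.02, 0.34 and 0.23 in pair B, then -0.07 and 0.09 in pair C, and 0 on both arrays of pair D. The mean of 0.11 ± 0.11 (SD, n = 3) rests on that array, since without it the mean was -0.01.

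Mta1 encodes a scaffold that binds and activates the deacetylase. It was read on 3 arrays of pair A, at 0.06, -0.36 and 0.89. In pair B it was -0.13, -0.66, 0.78 and 0.33, in pair C it was 0.30 and 0.60, and in pair D it was 0.03 and 0.13. Every array with TBV in Cy5 lay above 0 (5 of 5, from 0.13 to 0.89), while those with NT1 in Cy5 ran from -0.66 to 0.30 with 3 above and 3 below. Pair values of 0.37, 0.08 and 0.45 gave a mean of 0.30 ± 0.19 (SD, n = 3), the highest of the 7. The mean with NT1 in Cy5 only was -0.08. All 11 values of Mta1 kept their decimals.

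Mta2, the paralogous scaffold, was read on 12 arrays and swung most between arrays. Pair A gave 0.18, 0.91, -1, -1 and -2, the last 3 of them whole numbers. Pair B gave 0.61, 0.56, -0.52 and 0.39, and pair C gave 0.17 and -0.38. The only reading in pair D was 0. In the first pair arrays 1 and 2 lay above 0 and the other three below it. The pair values of -0.73, 0.26 and -0.10 averaged -0.19 ± 0.50 (SD, n = 3), and the mean with NT1 in Cy5 only was 0.26.

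Gatad2a encodes the p66 alpha protein that couples the MBD protein to CHD4. Its values all kept their decimals. In pair A they were 0.05, 0.48, 0.36, 0.92 and 0.74, above 0 on 5 of 5 arrays. In pair B they were 0.10, -0.19, -0.13 and -0.21. The groups overlap only in array 1 of each, 0.05 against 0.10. It was 0.11 and -0.17 in pair C, and 0.19 and -0.14 in pair D. The pair values of 0.52, -0.11 and -0.03 gave a mean of 0.13 ± 0.34 (SD, n = 3).

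Chd4, the ATPase that slides nucleosomes, was read on 12 arrays. Pair A gave 0.05, 0.24, 0.92 and 1 on arrays 1, 3, 4 and 5, all above 0. Pair B gave -0.19, -0.42, 0.42 and -0.23, and pair C gave -0.19 and -0.01. The highest array of the second pair, at 0.42, lay inside the range of the first. Pair D gave 0 and 2, both whole numbers, so its pair value of 1.00 is coarse. The pair values of 0.55, -0.11 and -0.10 averaged 0.12 ± 0.38 (SD, n = 3).

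The second comparison asked whether the ratio of NT1 over TBV differed between pair A and pair B. It used all 13 arrays with a dye term and took the spread between repeat arrays as the error, so it compares these RNA sources and not passages. Rbbp4 was higher in the first pair by 0.87 on the log2 scale (SE 0.19, 1.83-fold, limma adjusted p = 0.018), and Gatad2a by 0.60 (SE 0.19, 1.52-fold, limma adjusted p = 0.040). These were 2 of 7 members higher and 0 lower, where 11.5% of 16317 probes were higher and 11.2% lower. No member had every array of the first pair above every array of the second (0 of 7), where 7.26% of probes did. These calls are fragile. Over single arrays left out, the calls over all probes went from 3, without array 2 of pair B, to 4786, without array 1 of pair A. Array 1, 2 or 4 of pair B left out took the call from Rbbp4 (adjusted p from 0.061 to 0.062), while Gatad2a kept it in 2 of 13 such fits.

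Centring, scaling and rounding also bear on these calls. With arrays scaled to the same median absolute ratio, Rbbp4 was at 0.54 and Gatad2a at 0.35, and neither passed (limma, adjusted p = 0.094 and adjusted p = 0.22). With all values rounded to whole numbers Rbbp4 was at 0.97 and Gatad2a at 0.41, and neither passed (limma, adjusted p = 0.055 and adjusted p = 0.38). Both passed without centring (limma, adjusted p = 0.018 and adjusted p = 0.040). On rows without whole numbers both kept the same difference and passed among fewer probes (limma, adjusted p = 0.0041 and adjusted p = 0.018), and with only the values that kept decimals the adjusted p was 0.0051 and 0.019. When arrays were centred on the ribosomal protein genes the median of all probes moved to -0.92, and Rbbp4 at -0.03 and Gatad2a at -0.30 were then close to or below 0, though above that median. With pair A turned, the difference was -0.20 for Rbbp4 and -0.39 for Gatad2a, and neither passed.

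Chd4 had a difference of 0.66 (95% interval -0.13 to 1.45) and did not pass (limma, adjusted p = 0.18). Mta2 was the only one of the 7 below 0, at -0.95 (interval -1.85 to -0.04, limma adjusted p = 0.11). It passed without array 2 of pair A (-1.22, limma adjusted p = 0.042). With ribosomal centring it also passed (-1.85, limma adjusted p = 0.018), but there the median of all probes was -0.92. That setting called 9301 of 16317 probes lower and 270 higher. Mta1 stood at 0.23, Hdac1 at 0.18 and Rbbp7 at 0.14, each with an interval that holds 0. For Hdac1 the interval ran from -0.73 to 1.09, and without array 4 of the first pair the difference was -0.24. Turning a pair, scaling or ribosomal centring reversed several of these small differences.

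**Figure D2:**
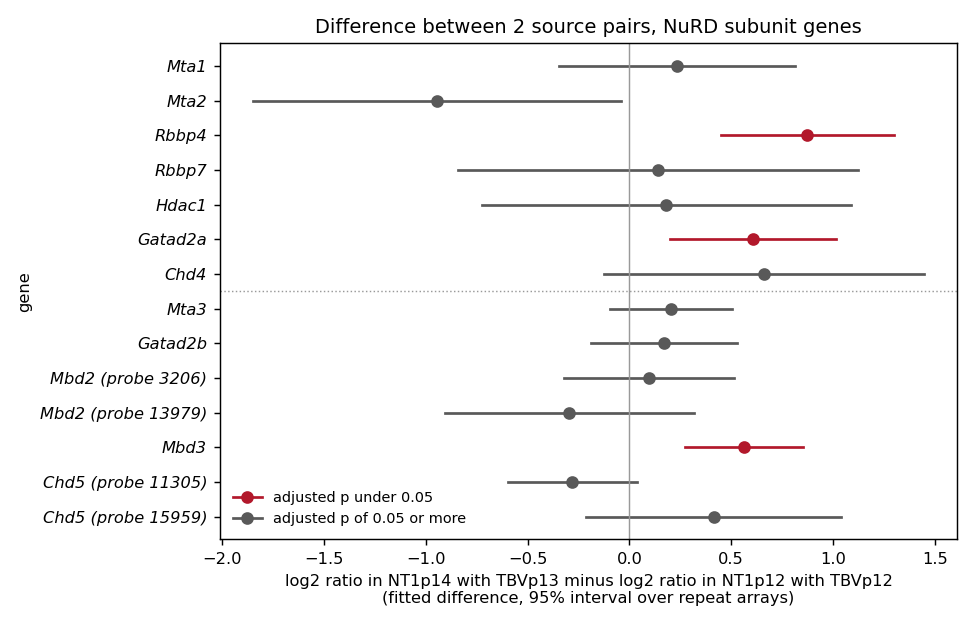
Fitted log2 ratio in pair A minus that in pair B (horizontal axis) for each NuRD subunit probe (vertical axis), as a point with its 95% interval over repeat arrays. The 7 members stand over the dotted line and other subunits under it, and red marks an adjusted p under 0.05: Rbbp4 at 0.87, Gatad2a at 0.60 and Mbd3 at 0.56.

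Within single pairs, with repeat arrays as the error, Rbbp4 (0.54) and Gatad2a (0.50) passed above 0 in pair A (limma, adjusted p = 0.031 and adjusted p = 0.032), 2 of 7 members where 15.2% of probes were called in either direction. After scaling 23 probes were called in that pair in place of 2474. No member passed in pair B (0.447% of probes called), in pair C (0.0184%) or in pair D (0.0123%). These p-values carry technical error only. Arrays 4 and 5 of pair A had the widest spread of ratios over probes, with SDs of 1.00 and 1.14 against 0.34 to 0.81 on the other arrays.

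Of 7 tested probes of subunits that are no members, 1 was higher in pair A than in pair B and 0 were lower. Among all probes 11.5% were higher and 11.2% lower. The 1 was that of Mbd3, the methyl-binding-domain protein of the embryonic stem cell complex. Its ratio was 0.22, 0.42, -0.09, 0.63 and 0.23 in pair A and -0.18, -0.08, -0.57 and -0.41 in pair B. All 4 arrays of the second pair were below 0, and the groups meet only at array 3 of the first. The difference was 0.56 (SE 0.13, limma adjusted p = 0.021), and it did not pass after scaling (0.45, adjusted p = 0.056), after rounding to whole numbers (0.42, adjusted p = 0.38) or without array 1, 2 or 4 of pair B, where it was 0.55, 0.59 and 0.58. It passed on rows without whole numbers and with only the values that kept decimals, at the same 0.56 (limma, adjusted p = 0.012 and adjusted p = 0.013). With pair A turned it was 0.06 and did not pass. Centred on ribosomal protein genes it was -0.34. Over the 3 pairs Mbd3 had 0.25, -0.31 and 0.17, a mean of 0.04 ± 0.30 (SD, n = 3).

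Mbd2, the alternative to Mbd3, had 2 probes with means of -0.02 and -0.01 and pair differences of 0.09 and -0.30. Mta3, another MTA scaffold, had a mean of 0.08 ± 0.10 (SD, n = 3), and Gatad2b, the p66 beta paralogue, one of -0.04 ± 0.10. Chd5, the CHD remodeller best known from neurons, had 2 probes at 0.06 and 0.07, with pair differences of opposite sign (-0.28 and 0.41). None of these passed either test. Hdac2, the partner deacetylase, was read on 6 arrays, from -0.56 to 0.37, with no complete pair among the 3 independent ones. The Chd3 probes were read on 8 arrays and on 1, Cdk2ap2 on 2, and these gave no mean over the pairs.

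The dye component was larger in size than the mean ratio of NT1 over TBV for Mta1, Mta2, Rbbp4 and Rbbp7, and about as large for Chd4. The mean Cy5 over Cy3 ratio of both orientations, in which the source cancels, was 0.46 ± 0.27 (SD, n = 3) for Mta2, higher in Cy5, and -0.38 ± 0.20 for Mta1, lower in Cy5. Rbbp7 had -0.34 ± 0.25 and Rbbp4 -0.22 ± 0.19, while Chd4 had -0.12 beside a mean ratio of 0.12, Gatad2a 0.06 and Hdac1 0.01. The typical probe had a dye component of 0.13 in size. None passed (limma, adjusted p = 0.14 for both Mta genes), in a table with 0 of 15973 probes past the threshold (0%) and 3868 at an unadjusted p under 0.05. For Mta1, Mta2, Rbbp4 and Chd4 the mean over pairs changes side when only arrays with NT1 in Cy5 are used, at -0.08, 0.26, -0.17 and -0.01.

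The other deacetylase complexes were described beside NuRD. The median of the 7 members was 0.37 in pair A, -0.11 in pair B and -0.05 in pair C. All genes had 0.02, 0.02 and -0.01. Among the members 3 of 7 were above 0 in the first pair and below it in the second, as were 35.1% of all genes. The 10 measured Sin3 complex genes had medians of -0.02, -0.03 and 0.03, and the 4 CoREST genes 0.14, 0.06 and 0.02. Brms1, a Sin3 subunit, was at 0.41 ± 0.35 (SD, n = 3) and Sap130, another, at -0.38 ± 0.19, each on the same side in all 3 pairs and neither past the threshold. Of 14 Sin3 probes 4 were higher in pair A than in pair B and 0 lower: Sap18 at 1.47, Morf4l1 at 1.19 and 1.01, and Brms1 at 0.67. Other probes of the same genes disagree, Sap18 with -0.25 and Morf4l1 with -0.58, neither past the threshold. Of 5 CoREST probes 0 passed. Phf21a, a CoREST reader, was at 0.09 ± 0.05.

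Complexes that share RBBP4 or RBBP7 with NuRD, among them PRC2 and the CAF-1 chaperone, had 12 measured genes with medians of 0.20, -0.13 and 0.06. Of their 14 probes 2 were higher in the first of these pairs and 2 lower. Hat1, a histone acetyltransferase that works with RBBP7, was higher by 1.40 and the remodeller Smarca5, read only in whole numbers, by 3.50, while Ezh1 (-0.80) and Chaf1b (-0.52) were lower. Eed, a core PRC2 subunit, was at 0.07 ± 0.06 (SD, n = 3). Of 5 probes of other histone deacetylases 1 passed, Hdac4, lower by -0.67, and of 6 probes of other CHD genes 1 passed, Chd7, higher by 0.63. In the NCoR and SMRT list 1 of 3 probes passed, Gps2 at -0.93. Tbl1x of that list stood at 0.17 ± 0.16 over the 3 pairs and the remodeller Chd1l at 0.08 ± 0.09.

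**Figure D3:**
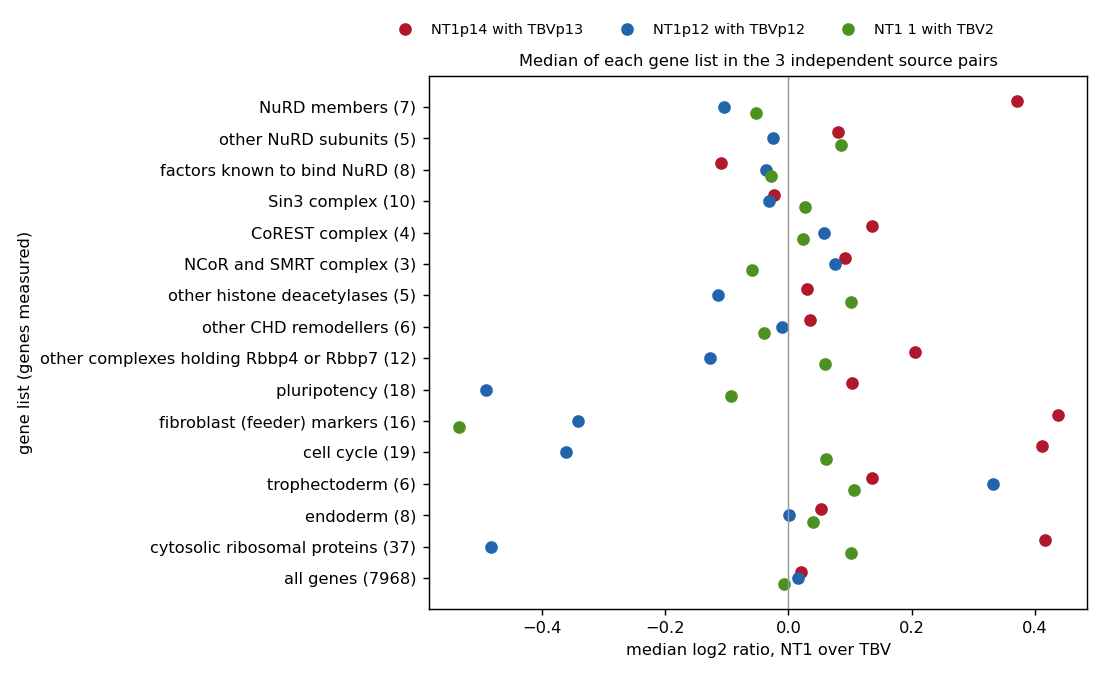
Median log2 ratio of NT1 over TBV (horizontal axis) of each gene list (vertical axis, genes measured in brackets) in the 3 independent source pairs, by colour. The NuRD members lie at 0.37, -0.11 and -0.05, with the cell cycle genes at 0.41, -0.36 and 0.06 and all genes near 0.

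Sall4, the gene of the series title, had pair values of 0.07, -0.59 and -0.32. It differed between pairs A and B by 0.66 (limma, adjusted p = 0.015), by a test that called 11.5% of all probes higher and 11.2% lower. Within pair B Sall4 (-0.59) and Pou5f1 (-1) passed below 0 (limma, adjusted p = 0.042 and adjusted p = 0.037), where 0.447% of probes were called. Those p-values carry technical error only, and the Pou5f1 values of pair B were whole numbers. Of 13 probes of factors known to bind NuRD, 6 were higher in the first pair and 2 lower. Besides Sall4 the higher ones were Lin28a at 1.16, Zfp219 at 1.32, Zfp592 at 0.56 and 2 probes of Zmynd8 at 1.08 and 1.44. Of the other Zmynd8 probes one was lower, at -0.61, and one did not pass, at 0.48, so that gene is uncertain. The transcriptional repressor Snai1 was the other lower one, at -0.81.

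Other lists also held probes that differed between these pairs, by the test that called 11.5% of all probes higher and 11.2% lower. Of 22 cell cycle probes 12 were higher and 0 lower (list medians 0.41 and -0.36), with Pcna, the replication clamp, at 2.35 on one probe and at 0.20 on another that did not pass. Fibroblast markers, a list for feeder cells, had 11 of 22 probes higher and 0 lower, with medians of 0.44 and -0.34 and Col1a1 at 1.30 and 1.74. Of 19 pluripotency probes 8 were higher and 0 lower, with Pou5f1 (Oct4) at 0.77. Whole numbers made up 11 of the 13 Pou5f1 values, so that difference is coarse. The ribosomal protein genes had medians of 0.42 and -0.48. Trophectoderm genes had 1 of 6 probes higher and 1 lower, and endoderm genes 2 of 10 higher and 1 lower. These counts also changed with the setting. With pair A turned the higher probes were 0 in the cell cycle list, 0 in the fibroblast list and 3 in the pluripotency list (1 lower), and without array 2 of pair B no probe of these 3 lists passed. Over all probes the turn called 26 of 16317 higher and 8 lower. Leaving out that array called 3 of 16041 higher and 0 lower. Scaled arrays left 5, 3 and 3 higher, where 789 of all 16317 probes were higher and 331 lower. Ribosomal centring gave 2 higher and 4 lower, 3 higher and 6 lower, and 0 higher and 6 lower. In that setting 270 of all 16317 probes were higher and 9301 lower. Values that kept decimals, among fewer probes, gave 4 higher and 1 lower, 0 higher and 0 lower, and 2 higher and 0 lower. Of the 12776 probes tested there 1162 were higher and 2235 lower. Rows without whole numbers, also fewer, gave 3 higher and 1 lower, 0 higher and 1 lower, and 2 higher and 0 lower. Of those 9813 rows 717 were higher and 1731 lower. In bulk RNA fewer cells of a type and less RNA per cell cannot be told apart. The part of these lists in the values of Rbbp4, Gatad2a and Mbd3 was not tested. In pair C the fibroblast median was -0.53 and that of the NuRD members -0.05.

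Of all 7968 genes 434 were below 0 in each of the 3 pairs and 713 above. Above 0 in pair A and below it in pair B were 35.1%. With pair A turned 1293 were below 0 in each pair and 1120 above. Over the 3 pairs, 7 of 18 measured pluripotency genes were below 0 in each pair and 1 above. With pair A turned 5 of these 18 were below and 0 above. Zfp42 was at -0.78 ± 0.89 (SD, n = 3), with pair values of -0.58, -1.75 and -0.01, the last of them near 0. Dnmt3l, the 1 above, was at 0.89 ± 0.35, with pair values of 1.17, 0.50 and 1.00. Among 16 fibroblast genes Thy1 alone was below 0 in each pair, at -0.32 ± 0.05, while 11 were above 0 in pair A and below it in pair B. With pair A turned 10 of the 16 were below 0 in each pair. Of 19 cell cycle genes only Bub1b, at -0.27 ± 0.31, and Ccne1, at -0.26 ± 0.13, were below 0 in each pair, against a list median of 0.03 and 15 genes above 0 in pair A and below it in pair B. Of 6 trophectoderm genes 3 were above 0 in each pair, among them Krt18 at 0.38 ± 0.26 and Cldn4 at 0.33 ± 0.17, and Lgals3 was below, at -0.07. None of these genes passed the test of NT1 over TBV.

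Rbbp4, Hdac1 and Gatad2a had a value on all 13 arrays, so their pattern could be set beside that of 6473 other probes with 1 gene name. The likeness is the root mean square difference over the 13 array values, which share their RNA sources. Closest to Rbbp4 were Cdca5, which encodes the cohesion factor sororin, at 0.16, and Tmem234 at 0.17, where the size of Rbbp4's own values by the same measure was 0.48. Cdca5 had pair values of 0.52, -0.22 and -0.02. Closest to Gatad2a were Rapgef1 at 0.17 and Snx30 at 0.18, against its own size of 0.39. Closest to Hdac1 were Ciao3 at 0.13 and Tpm3 at 0.21, against a size of 0.58 that the value of 2 on array 4 of pair A largely sets.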

How the data were processed

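The table deposited by the authors holds 1 signed value per probe and array, treated here as a log2 ratio of the channels. Its log base, numerator and normalisation within arrays are not given in the sources used here. Cy5 was taken as the numerator. Arrays were centred on their median. A pair value is the mean of arrays with NT1 in Cy5 minus the mean of those with TBV in Cy5, divided by 2. The 3 independent pair values were tested against 0, two-sided, in limma 3.58.1 (lmFit, then eBayes; R 4.3.3) with Benjamini-Hochberg adjustment over all probes and a threshold of 0.05. Pair differences came from limma on single arrays, 13 in all, fitting the dye and each pair. Both fits were run on simulated data of independent noise. That noise had no whole-number values and no spread between source pairs, so the run does not test how these features affect the calls.

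The members and lists were chosen with earlier results of these data known. The rule named, beyond the members, all measured NuRD subunits, Sall4, Pou5f1, the closest genes and, of each other list, genes called in NT1 over TBV or, with none called, at most 2 with the same sign in all pairs and the largest mean. Genes of other lists named for a pair difference, and Lgals3, were chosen after their values were seen. Probe names came from the platform annotation (11723 probes with 1 symbol, 806 with several, 7676 with none). The number of arrays limits the precision. Other settings changed the centring, scaling, direction, dye orientation, treatment of lost decimals and unit of replication, or left out arrays or pairs. Figures used matplotlib 3.10.9.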

Additional observations from a re-analysis of the deposited data

Results flagged for a closer look

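Among 12 groups of 4 or 5 arrays of the members, 1 array stood far from the others: array 4 of pair A (NT1p14 with TBVp13) read 2 for Hdac1, a whole number. Chance gives such an array in about 5% of groups.

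The ratio of NT1 over TBV was higher in pair A than in pair B (NT1p12 with TBVp12) for Rbbp4, by 0.87, and for Gatad2a, by 0.60, in the fit over repeat arrays. These were 2 of 7 members, where 11.5% of all probes were higher and 11.2% lower. Neither gene passed with scaled arrays or with pair A turned.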

How the results depend on the processing

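For the pair difference, the settings with values that kept their decimals, with rows without whole numbers and with pair A turned were chosen after seeing the data, as were all settings of the dye, within-pair and marker list counts. The count of 0 probes for NT1 over TBV became 3 with 13 arrays and the pair as a random block and 1 with ribosomal centring, and was 0 in the other 26 settings, leaving out pairs or arrays included (0 to 0). With NT1 in Cy5 only, Mta1 was at -0.083, Mta2 at 0.26, Rbbp4 at -0.17 and Chd4 at -0.0053, and with TBV in Cy5 only, Rbbp7 at 0.11. With pair A turned, Mta2 was at 0.30, Rbbp4 at -0.31, Hdac1 at -0.040, Gatad2a at -0.22 and Chd4 at -0.25. With pair B turned, Rbbp7 was at 0.011, and with scaled arrays Rbbp4 was at -0.0043. Leaving out a pair or an array moved Mta1 from 0.23 to 0.41, Mta2 from -0.42 to 0.079, Rbbp4 from -0.19 to 0.25, Rbbp7 from -0.44 to -0.02, Hdac1 from -0.010 to 0.18, Gatad2a from -0.068 to 0.24 and Chd4 from -0.10 to 0.23.

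The 3708 probes called between the pairs (50.8% higher) became 1120 with scaled arrays (70.4%), 9571 with ribosomal centring (2.82%), 147 with values rounded to whole numbers (94.6%), 2448 on rows without whole numbers (29.3%) and 34 with pair A turned (76.5%), and ran from 3 to 4786 without single arrays. Values that kept decimals gave 34.2% higher. With ribosomal centring the differences were -0.30 for Mta1, -1.85 for Mta2, -0.027 for Rbbp4, -0.63 for Rbbp7, -0.72 for Hdac1, -0.30 for Gatad2a, -0.29 for Chd4 and -0.34 for Mbd3. With pair A turned they were -0.39 for Mta1, 0.42 for Mta2, -0.20 for Rbbp4, -0.38 for Hdac1, -0.39 for Gatad2a and -0.45 for Chd4. With scaled arrays Rbbp7 was at -0.24 and Hdac1 at -0.037, and with values that kept decimals Hdac1 was at -0.25. Without single arrays Mta1 ran from 0.06 to 0.40, Mta2 from -1.22 to -0.68, Rbbp4 from 0.78 to 1.03, Rbbp7 from -0.18 to 0.43, Hdac1 from -0.24 to 0.33, Gatad2a from 0.51 to 0.73, Chd4 from 0.42 to 0.88 and Mbd3 from 0.51 to 0.62. Within pairs, scaling gave 23 probes in pair A, 12 in pair C and 2041 in pair D, and ribosomal centring gave 4472, 0 and 0 in these and 4 in pair B. The dye count of 0 held without centring and with scaled arrays. The causes were not tested. The table holds no intensities, so signal over background is unknown.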
